A study of Mus musculus with 6 samples.

Results

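Wnt signalling genes were followed in the cortical bone of mouse tibiae after an adenine diet. The set holds 58 of the 25721 genes in the deposited comparison table. Some have symbols that mark them as Wnt ligands, R-spondins, Frizzled receptors, secreted Frizzled-related proteins or Dickkopf proteins. The others belong to a fixed list of co-receptors, antagonists and targets. The rule reads names and no measured value, but it was chosen with earlier results of these data known. Both groups were wild-type mice of 12 weeks. The adenine group had received 0.2% adenine by weight in the diet for 4 weeks from 8 weeks of age, which injures the kidney and serves as a mouse model of chronic renal failure, and the control group had received the diet without adenine over the same time. There were 3 libraries per diet, called adenine 1 to 3 and control 1 to 3. Ends of the tibiae had been cut off and marrow flushed out before the bone was pulverised, so that the sample is whole cortical tissue with its osteocytes, osteoblasts, osteoclasts, vessels and attached cells, not a purified cell type.

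Wnt proteins are secreted lipid-modified signals that bind Frizzled receptors together with the co-receptors LRP5 and LRP6, upon which beta-catenin is spared from degradation and acts with TCF and LEF factors on target genes. In bone this pathway drives osteoblast formation and restrains resorption. Osteocytes release sclerostin, the product of Sost, which blocks LRP5 and LRP6 and is itself anchored by LRP4. Dickkopf proteins such as Dkk1 block the same co-receptors, and secreted Frizzled-related proteins capture the ligands.

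Total counts were 9977694 to 12044459 in the adenine libraries and 10549071 to 14598010 in the control libraries. The labels do not say that each library came from its own mouse, so each p measures only the spread among these libraries, which may be technical. The genome build of the counts is not stated, and antisense partners may share reads, since the strandedness of the libraries is unclear. Of the 58 members, 45 had enough reads to be tested. Levels are given as CPM, read counts scaled to the TMM-normalised library size, and as the authors' FPKM, which also divide by gene length, wherever genes are compared with each other. Several libraries stood apart. Summed over 8 skeletal muscle markers, adenine 1, 2 and 3 had 2363, 63890 and 4720 CPM, against 46530, 17405 and 77310 CPM in control 1, 2 and 3. Summed over 8 kidney tubule markers, adenine 1, 2 and 3 had 1924, 810 and 111 CPM, against 254, 67.7 and 52.2 CPM in control 1, 2 and 3. All 8 had a positive fold change, 4 of them at an unadjusted edgeR p under 0.05, which 4.22% of all genes reached as higher. The 4 red cell markers summed to 8428 CPM in control 3 and to 37312 CPM or more in every other library. Osteocyte markers as a list summed to 171 to 285 CPM in the adenine libraries, against 285 to 533 CPM in the control libraries, and none of the 8 was at 0 in a whole group.

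No member passed edgeR's quasi-likelihood test after adjustment over all 15609 genes tested, of which 0% passed (smallest adjusted p among members = 0.169, for Wnt16). At an unadjusted p under 0.05, which 10.7% of all genes reached (6.49% lower and 4.22% higher on the adenine diet), there were 12 members, 9 lower and 3 higher. Lower were the ligand genes Wnt16, Wnt11 and Wnt5b, the receptor genes Fzd2, Fzd6 and Lgr4, and the antagonist genes Sfrp5, Dkk1 and Sost, while Lrp4, Sfrp2 and Tcf7 were higher. The authors' deposited table, whose calls (adjusted p under 0.05) take in 1.4% of its rows, calls 5 of the 58: Wnt16, Sfrp5, Fzd2 and Dkk1 lower (0.937% of its rows are called lower) and Sfrp2 higher (0.467% of its rows are called higher). All 3 adenine libraries lay below all 3 control libraries for 9 tested members, a pattern shown by 8.86% of all genes, and above them for 2 members, a pattern shown by 7.68%. The median log2 fold change was -0.52 over the 45 tested members and -3.85e-07 over all genes tested. Members reached the test through the group where they are high, so these counts and the median are descriptions. Without adenine 2 the count of lower members at an unadjusted p under 0.05 was 18 of 50 tested, in place of 9 of 45. In that fit 14.1% of all genes were lower at that threshold, against 6.49% in the main fit. The 3 members Wnt16, Sfrp5 and Sfrp2 passed the adjusted threshold there, as did 2.03% of all genes. Without control 1 the count of lower members was 5, with 3.89% of all genes lower. The count of higher members was 1 in place of 3 without control 1 (2.77% of all genes higher) or without adenine 3 (3.07%).

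**Figure D1:**
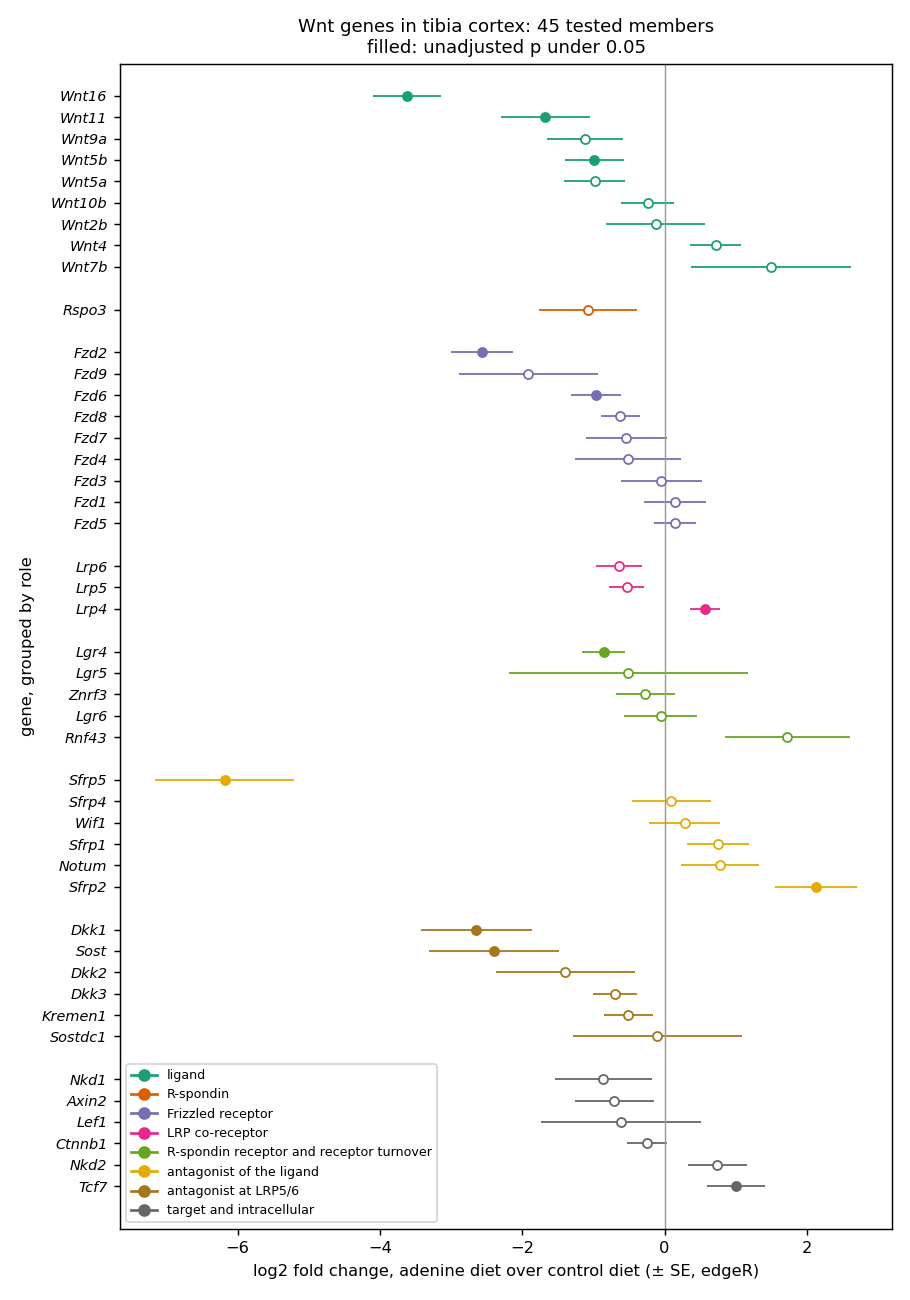
Log2 fold change (adenine diet over control diet, horizontal axis) with its standard error for the 45 tested members, grouped by role down the page; filled points had an unadjusted edgeR p under 0.05. Sfrp5 (-6.18), Wnt16 (-3.62), Dkk1 (-2.65), Fzd2 (-2.57) and Sost (-2.40) stand furthest to the left, and Sfrp2 (2.13) furthest to the right.

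Of the 9 ligands with enough reads to be tested, Wnt16 had the largest fold change. Wnt16 is made by osteoblasts and is known in mice for preserving cortical thickness, partly through osteoprotegerin. Its gene (ENSMUSG00000029671, chromosome 6) had 0.924, 3.46 and 1.73 CPM in adenine 1, 2 and 3, against 24.7, 22.1 and 28.3 CPM in control 1, 2 and 3. The highest adenine library lay far under the lowest control library, and the control libraries stayed close together. Means were 2.04 ± 1.30 CPM on the adenine diet and 25.03 ± 3.09 CPM on the control diet (SD, n = 3 each). That is a log2 fold change of -3.62 ± 0.48 (SE), or 12.3-fold lower on the adenine diet (edgeR, unadjusted p = 8.75e-05, adjusted p = 0.169). The authors' deposited table gives -3.63 with an adjusted p of 4.30e-09. With any single library left out the log2 fold change ran from -4.22 to -3.28, and after adjustment for muscle markers (their mean level as a covariate, added after seeing the data) it was -3.08.

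The promoter windows that follow are shown for the members called in the authors' deposited table that have an entry in the RefSeq promoter table, and for Sost. Each runs from 250 bases before to 50 bases after the transcription start of the gene, 5′ to 3′ on the gene's strand, in build GRCm38.p6. The deposited gene coordinates do not match that build. Sost ends at 101857841 there, outside its window, and Sfrp5, Sfrp2 and Dkk1 also lie outside theirs. Capitals mark matches, on either strand, to the core bound by TCF and LEF factors, which reads CTTTG. They also mark the core bound by RUNX factors, which reads TGTGGT, the CCAAT box, and the TATA box, which reads TATAAA. Positions are counted from the start site, with negative numbers before it.
Wnt16, chr6:22287977-22288276, plus strand: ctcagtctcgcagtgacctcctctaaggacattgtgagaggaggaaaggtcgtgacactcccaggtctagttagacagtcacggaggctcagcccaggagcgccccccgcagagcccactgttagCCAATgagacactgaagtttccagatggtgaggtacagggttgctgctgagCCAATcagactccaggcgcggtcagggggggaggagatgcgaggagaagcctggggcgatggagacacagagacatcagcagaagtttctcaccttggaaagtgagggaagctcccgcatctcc
Sfrp5, chr19:42202203-42202502, minus strand: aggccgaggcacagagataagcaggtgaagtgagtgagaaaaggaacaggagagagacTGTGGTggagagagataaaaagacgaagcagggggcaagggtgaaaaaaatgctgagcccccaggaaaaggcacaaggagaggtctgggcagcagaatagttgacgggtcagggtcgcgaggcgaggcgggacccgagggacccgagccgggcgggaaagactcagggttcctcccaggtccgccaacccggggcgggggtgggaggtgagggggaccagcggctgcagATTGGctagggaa
Sfrp2, chr3:83766071-83766370, plus strand: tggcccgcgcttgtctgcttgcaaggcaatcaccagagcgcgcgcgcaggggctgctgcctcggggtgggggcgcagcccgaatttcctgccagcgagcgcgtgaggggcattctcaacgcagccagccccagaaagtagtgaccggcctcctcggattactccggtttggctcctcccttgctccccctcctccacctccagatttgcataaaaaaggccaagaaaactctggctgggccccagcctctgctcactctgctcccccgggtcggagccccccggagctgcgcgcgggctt
Sost, chr11:101966966-101967265, minus strand: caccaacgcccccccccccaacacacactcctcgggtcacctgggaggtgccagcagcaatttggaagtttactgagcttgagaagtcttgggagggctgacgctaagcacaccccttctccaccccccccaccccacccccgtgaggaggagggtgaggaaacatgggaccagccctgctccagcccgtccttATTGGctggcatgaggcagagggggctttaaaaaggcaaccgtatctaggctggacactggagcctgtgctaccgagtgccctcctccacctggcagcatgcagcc
Dkk1, chr19:30549447-30549746, minus strand: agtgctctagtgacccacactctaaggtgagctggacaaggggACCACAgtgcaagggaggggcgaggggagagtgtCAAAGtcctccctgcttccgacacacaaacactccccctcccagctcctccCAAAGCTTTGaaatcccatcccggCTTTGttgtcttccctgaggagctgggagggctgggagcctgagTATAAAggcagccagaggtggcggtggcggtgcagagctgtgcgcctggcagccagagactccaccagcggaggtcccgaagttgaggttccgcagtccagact

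The Dkk1 window holds 4 TCF and LEF core matches, first bases at -173, -122, -117 and -98, of which the middle pair stand back to back, together with a RUNX core at -207 and a TATA box at -54. Wnt16 has a pair of CCAAT boxes at -125 and -74, Sost has 1 at -56, and Sfrp5 has a RUNX core at -192 and a CCAAT box at 38 after the start. None of these letters occurs in the Sfrp2 window, and no matches overlapped. Over all 32851 promoter windows of the table, 53.9% hold the TCF and LEF core, 16.8% the RUNX core, 37.4% the CCAAT box and 13.6% the TATA box. Among 47 windows of the 38 members with an entry, the shares were 38.3%, 4.26%, 36.2% and 17% in the same order. A match is a run of letters and not a measured binding site.

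Wnt11 and Wnt5b, ligands best known for signalling without beta-catenin, were lower too. Wnt11 had 1.20, 2.62 and 0.826 CPM in adenine 1, 2 and 3, against 5.52, 2.64 and 6.61 CPM in control 1, 2 and 3, so that adenine 2 and control 2 all but touched. For Wnt11 the log2 fold change was -1.67 ± 0.63 (SE; edgeR, unadjusted p = 0.0303, adjusted p = 0.424), and -0.92 after adjustment for muscle markers. It was -2.29 without adenine 2, and its unadjusted p in edgeR was between 0.0774 and 0.106 without adenine 1, adenine 3, control 1 or control 3. Wnt5b had 4.34, 7.45 and 12.2 CPM in the adenine libraries, against 19.7, 14.0 and 13.9 CPM in the control libraries, with a log2 fold change of -0.99 ± 0.41 (SE; edgeR, unadjusted p = 0.0446, adjusted p = 0.465). Without adenine 3, Wnt5b had an unadjusted edgeR p of 0.0101, and with any other single library left out it had 0.0539 to 0.140. Its span overlaps Fbxl14 on the opposite strand, a gene at 10.5 FPKM against 4.25 FPKM for Wnt5b, and reads of the pair cannot be told apart with certainty. The related Wnt5a had 11.1, 8.29 and 6.31 CPM in the adenine libraries and 25.4, 8.89 and 16.3 CPM in the control libraries, with control 2 inside the adenine range (log2 fold change -0.98 ± 0.43 SE; edgeR, unadjusted p = 0.0543).

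Wnt4 and Wnt10b were the ligand transcripts with the highest FPKM on the adenine diet, and neither differed at an unadjusted p under 0.05. Wnt10b, a beta-catenin ligand that raises bone mass in mice, had 20.9, 29.0 and 17.7 CPM in the adenine libraries, against 28.3, 14.6 and 36.6 CPM in the control libraries (log2 fold change -0.24 ± 0.37 SE; edgeR, unadjusted p = 0.540). Its direction was positive (0.07) without control 3 and after adjustment for muscle markers (0.27). Wnt4, which in mouse bone restrains osteoclast formation, had 17.7, 28.7 and 32.8 CPM in the adenine libraries and 15.05, 10.4 and 22.6 CPM in the control libraries, with a log2 fold change of 0.72 ± 0.36 (SE; edgeR, unadjusted p = 0.0855).

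Each ligand was also taken as a share of the ligand pool. Summed over the 17 ligand genes, FPKM was 20.6 ± 2.91 on the adenine diet and 31.6 ± 9.19 on the control diet (SD, n = 3 each), with control 2 at 21.7 lying inside the adenine range of 17.2 to 22.4. Wnt16 made up 1.26%, 3.31% and 1.74% of that sum in adenine 1, 2 and 3, against 15.6%, 21.9% and 15.6% in control 1, 2 and 3. Wnt4 made up 24.9%, 28.5% and 34.4% in the adenine libraries and 9.89%, 10.7% and 13.0% in the control libraries. For both genes the shares of the diets did not overlap, whereas the Wnt4 level itself did. A share also depends on the other ligands of the sum. The smaller shares of Wnt11 (0.877% to 2.64% on the adenine diet, 2.76% to 3.85% on the control diet) did not overlap either. Nor did those of Wnt7b (1.16% to 3.16% on the adenine diet, 0% to 0.859% on the control diet). Wnt10b took 31.6 ± 7.55% on the adenine diet and 22.5 ± 3.70% on the control diet (SD, n = 3 each), and Wnt5b took 13.8 ± 5.54% on the adenine diet and 18.6 ± 5.33% on the control diet. The Wnt10b and Wnt5b shares overlapped between the diets, as did those of Wnt9a and Wnt5a. These shares were not tested: with 3 libraries against 3, an exact two-sided permutation test cannot give a p below 0.1.

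**Figure D2:**
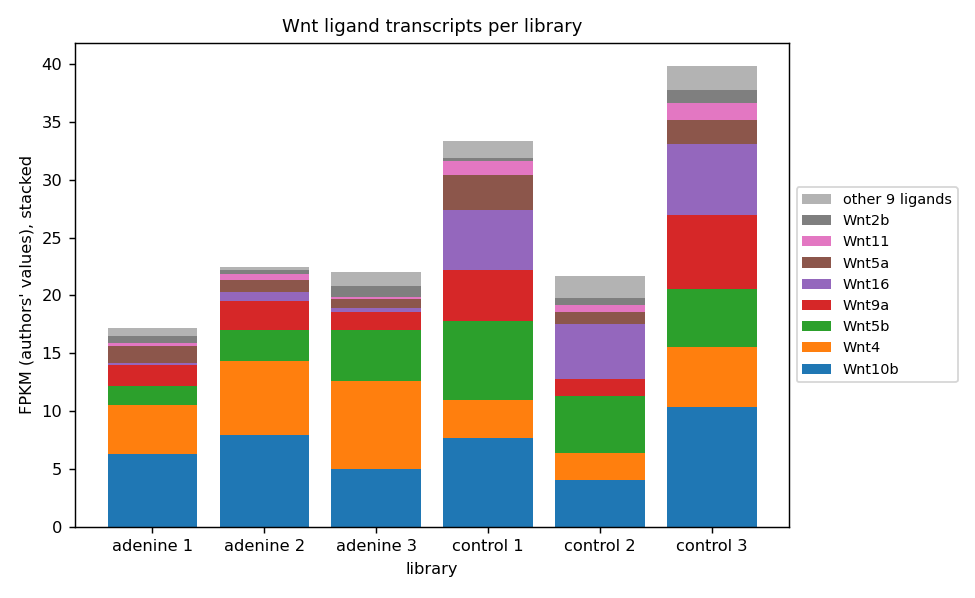
Stacked FPKM of the Wnt ligand genes (vertical axis) in each of the 6 libraries, adenine on the left and control on the right. The Wnt16 segment takes 1.26% to 3.31% of the bar in adenine libraries and 15.6% to 21.9% in control libraries, and the Wnt4 segment takes 24.9% to 34.4% in adenine libraries and 9.89% to 13.0% in control libraries.

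Wnt9a, at 5.73, 9.13 and 5.18 CPM in the adenine libraries against 16.1, 5.19 and 22.1 CPM in the control libraries, overlapped between the diets at control 2. Wnt7b and Wnt2b, the other tested ligands, had log2 fold changes of 1.497 ± 1.12 SE and -0.13 ± 0.70 SE. The remaining 8 ligand genes were too low to test. Wnt1, which osteocytes make and whose loss causes brittle bone in mice and people, had 0 counts in all 3 adenine libraries, against 18, 14 and 0 counts in control 1, 2 and 3. Set against a floor of 3 counts over the adenine group, its 32 control counts correspond to a level at least 9.33-fold lower on the adenine diet, with control 3 also at 0. Wnt6 had 1, 0 and 2 counts in the adenine libraries and 3, 33 and 24 counts in the control libraries. Wnt2, Wnt3, Wnt3a, Wnt8b, Wnt9b and Wnt10a had at most 21 counts in any library.

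R-spondins amplify Wnt signals by keeping Frizzled receptors on the cell surface, and they were scarce. Rspo3 was the only 1 of the 4 to be tested. It had 0.832, 0.840 and 3.60 CPM in the adenine libraries, against 4.16, 3.52 and 3.65 CPM in the control libraries, so that adenine 3 alone lay at the control level. The log2 fold change was -1.08 ± 0.69 (SE; edgeR, unadjusted p = 0.157), and -2.16 without adenine 3. Rspo2 had 10, 3 and 11 counts in the adenine libraries and 5, 8 and 11 in the control libraries, Rspo1 had at most 21 counts and Rspo4 at most 3.

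Of the Frizzled receptors, 9 of 10 were tested and 7 had a negative fold change, against 7805 of all 15609 genes tested. Fzd2 (ENSMUSG00000050288, chromosome 11) had 2.03, 1.89 and 1.43 CPM in adenine 1, 2 and 3, against 10.8, 6.60 and 14.4 CPM in control 1, 2 and 3. The adenine libraries were tightly grouped and all lay far under the controls. Fzd2 averaged 1.78 ± 0.317 CPM on the adenine diet and 10.6 ± 3.88 CPM on the control diet (SD, n = 3 each), 5.93-fold lower, or -2.57 ± 0.44 (SE) on the log2 scale (edgeR, unadjusted p = 4.48e-04, adjusted p = 0.180), and the authors' deposited table gives an adjusted p of 4.63e-04. Fzd6 had 7.49, 10.5 and 10.5 CPM in the adenine libraries and 26.7, 12.4 and 16.3 CPM in the control libraries, with a log2 fold change of -0.96 ± 0.35 (SE; edgeR, unadjusted p = 0.0275, adjusted p = 0.414) that was -0.59 without control 1.

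Fzd4, the receptor for norrin as well as Wnts and the highest of the family by mean FPKM over the 6 libraries, had 29.6, 162 and 24.8 CPM in adenine 1, 2 and 3, against 102, 62.0 and 145 CPM in control 1, 2 and 3. In adenine 1 and adenine 3 Fzd1 was above it, with 6.55 and 12.2 FPKM for Fzd1 against 4.48 and 3.56 FPKM for Fzd4. For Fzd4 as for the muscle markers, adenine 2 and control 3 were highest, control 1 and control 2 lay between, and adenine 1 and adenine 3 were lowest. The endothelial markers had the order of Fzd4 within each diet, but with every adenine library below every control. They summed to 278, 432 and 273 CPM in adenine 1, 2 and 3, against 738, 642 and 831 CPM in control 1, 2 and 3. The log2 fold change was -0.52 ± 0.74 (SE; edgeR, unadjusted p = 0.509), -1.93 without adenine 2, and 0.34 after adjustment for muscle markers. Fzd7 had 11.7, 54.9 and 17.0 CPM in the adenine libraries and 35.8, 29.5 and 55.8 CPM in the control libraries, again with adenine 2 and control 3 on top. Beyond the muscle covariate for Fzd4, the part of muscle and endothelial RNA in Fzd4 and Fzd7 was not tested. Fzd1 had 27.0, 19.9 and 52.9 CPM in the adenine libraries, against 33.7, 17.3 and 39.3 CPM in the control libraries (log2 fold change 0.15 ± 0.44 SE), and was negative without adenine 3 (-0.36), without control 2 (-0.14) and after adjustment for muscle markers (-0.01). Fzd8 was lower in every adenine library (13.0 to 18.4 CPM) than in any control library (18.9 to 29.0 CPM), with a log2 fold change of -0.62 (edgeR, unadjusted p = 0.0552). Fzd9, Fzd5 and Fzd3 had -1.92, 0.15 and -0.04 with overlapping groups, and Fzd10 had at most 10 counts in any library.

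**Figure D3:**
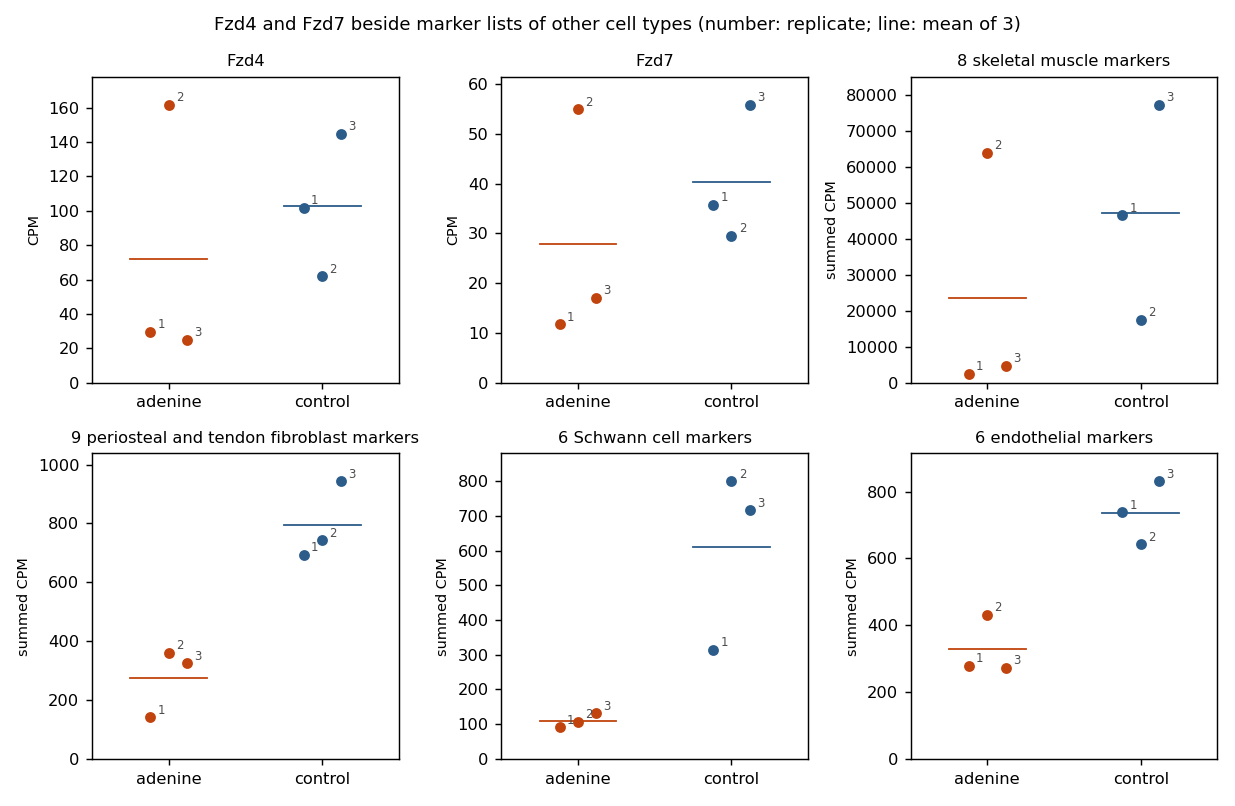
CPM of Fzd4 and Fzd7 and summed CPM of 4 marker lists (vertical axes from 0), each point a library with its replicate number and each line a mean of 3. For Fzd4 and for the muscle markers adenine 2 and control 3 are the 2 highest libraries, while the fibroblast, Schwann cell and endothelial sums are lower in all 3 adenine libraries than in any control library.

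The co-receptors differed in direction. Lrp4, which presents sclerostin to the LRP5 and LRP6 complex, had 86.0, 104 and 93.9 CPM in the adenine libraries, against 58.1, 60.6 and 73.1 CPM in the control libraries. All adenine libraries were above all controls, at 94.8 ± 9.19 CPM on the adenine diet and 63.9 ± 8.02 CPM on the control diet (SD, n = 3 each), 1.48-fold higher on the adenine diet, or 0.57 ± 0.21 on the log2 scale (SE; edgeR, unadjusted p = 0.0263, adjusted p = 0.410). Lrp5, whose activating mutations cause high bone mass, had 43.8, 66.7 and 51.5 CPM in the adenine libraries, against 71.5, 69.0 and 93.7 CPM in the control libraries. Lrp6 had 38.9, 58.0 and 32.9 CPM in the adenine libraries and 58.5, 49.3 and 93.7 CPM in the control libraries. Log2 fold changes of Lrp5 and Lrp6 were -0.53 ± 0.24 SE and -0.64 ± 0.32 SE, and in edgeR their unadjusted p was 0.0621 and 0.0880. After adjustment for muscle markers these were -0.25 and -0.20, while Lrp4 had 0.71.

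Lgr4, a receptor for R-spondins that can also bind RANKL, had 16.5, 19.8 and 14.0 CPM in adenine 1, 2 and 3, against 29.8, 20.4 and 41.0 CPM in control 1, 2 and 3. The groups did not overlap, with control 2 just above adenine 2, and the log2 fold change was -0.86 ± 0.31 (SE; edgeR, unadjusted p = 0.0244, adjusted p = 0.408). Lgr6, an R-spondin receptor of osteoblast-lineage cells, had 3.14, 4.83 and 4.51 CPM in the adenine libraries and 7.09, 2.55 and 3.27 CPM in the control libraries, a log2 fold change of -0.05 ± 0.51 (SE) that was positive without control 1 (0.52), without adenine 1 (0.11) and after adjustment for muscle markers (0.28). Rnf43 and Znrf3 encode the ligases that remove Frizzled receptors from the surface. Rnf43 had 1.48, 4.09 and 3.08 CPM in the adenine libraries, against 0.788, 1.67 and 0.152 CPM in the control libraries (log2 fold change 1.73 ± 0.88 SE), but 1110028F11Rik overlaps it on the same strand at a higher FPKM (0.898 against 0.273). Znrf3 had -0.27 and Lgr5 had -0.51 ± 1.68 (SE).

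Secreted antagonists that act on the ligands had fold changes of both signs, and they were the only role class with a median log2 fold change above 0 (0.52, over 6 genes). Sfrp5 (ENSMUSG00000018822, chromosome 19) was nearly absent on the adenine diet, with 0, 0.525 and 0.225 CPM in adenine 1, 2 and 3, against 5.52, 21.3 and 28.1 CPM in control 1, 2 and 3. Its counts were 0, 5 and 3 in the adenine libraries and 77, 242 and 370 in the control libraries. The adenine libraries all lay near the floor of 3 counts, which is 0.225 to 0.315 CPM in those libraries, and control 1 lay well under control 2 and control 3. The log2 fold change was -6.18 ± 0.98 (SE), which at such low counts depends on the prior count (edgeR, unadjusted p = 2.89e-04, adjusted p = 0.180). With 1 library left out it ran from -7.12 (without adenine 2) to -5.63 (without adenine 1). The authors' deposited table gives -6.24 with an adjusted p of 2.38e-09.

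Schwann cell markers were lower in the adenine libraries too, but their order within each diet was not that of Sfrp5. Summed over 6 markers they had 91.3, 108 and 131 CPM in adenine 1, 2 and 3, against 315, 800 and 716 CPM in control 1, 2 and 3, with control 1 again the lowest control. All 6 were lower on the adenine diet at an unadjusted edgeR p under 0.05, which 6.49% of all genes reached as lower. So were 6 of 9 periosteal and tendon fibroblast markers (141 to 361 CPM summed in the adenine libraries, against 694 to 944 CPM in the control libraries). The same held for 6 of 6 endothelial markers (273 to 432 CPM in the adenine libraries, against 642 to 831 CPM in the control libraries). No gene of these 3 lists was at 0 in a whole group. Of 3 tested B cell markers, 3 were lower at that threshold as well. Wnt16, Fzd2 and Sfrp5 differed in the same direction as these lists, whose part in the values was not tested. In whole tissue, fewer cells of a type and less RNA per cell cannot be told apart.

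Sfrp2, a fibroblast and osteoprogenitor product, was the member with the largest positive log2 fold change. It had 11.4, 7.87 and 36.0 CPM in adenine 1, 2 and 3, against 4.30, 4.14 and 4.18 CPM in control 1, 2 and 3. Control libraries agreed within a narrow band, and adenine 3 stood far above the other adenine libraries. The log2 fold change was 2.13 ± 0.58 (SE; edgeR, unadjusted p = 0.00683, adjusted p = 0.292; authors' deposited table, adjusted p = 0.0246), and it was 1.19 without adenine 3. Sfrp1, which lowers bone mass in mice, had 19.2, 8.08 and 18.2 CPM in the adenine libraries and 8.81, 5.63 and 12.6 CPM in the control libraries (log2 fold change 0.75 ± 0.44 SE; edgeR, unadjusted p = 0.128).

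Wif1 and Sfrp4 had the highest FPKM of this class. Wif1, an osteoblast-derived inhibitor, had 53.9, 46.5 and 114 CPM in the adenine libraries, against 72.2, 78.4 and 25.4 CPM in the control libraries (log2 fold change 0.28 ± 0.50 SE), and its sign turned without adenine 3 (-0.23), without control 3 (-0.07) and after adjustment for muscle markers (-0.21). Sfrp4, whose loss thins cortical bone, had 66.5, 44.2 and 177 CPM in the adenine libraries, against 104, 48.8 and 116 CPM in the control libraries. Its log2 fold change of 0.10 ± 0.55 SE was negative without adenine 3 (-0.70) or control 2 (-0.20), on log2(FPKM + 1) (-0.0014), and after adjustment for muscle markers (-0.27). Notum, which removes the lipid from Wnt proteins, had 4.25, 3.15 and 4.05 CPM in the adenine libraries and 3.51, 1.94 and 1.22 CPM in the control libraries (log2 fold change 0.78 ± 0.54 SE). Adenine 3 had the highest level of Sfrp2, Sfrp4 and Wif1 among all 6 libraries, and it also had the highest sum of osteoblast markers (41853 CPM, with 14763 to 34664 CPM elsewhere) and of 7 osteoclast markers (6795 CPM). All 7 osteoclast markers had a positive fold change, 6 of them at an unadjusted edgeR p under 0.05, which 4.22% of all genes reached as higher. Their sum was 3820 to 6795 CPM on the adenine diet, against 1513 to 1723 CPM on the control diet. The part of these cells in the levels of Sfrp2, Lrp4 and Tcf7 was not tested.

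**Figure D4:**
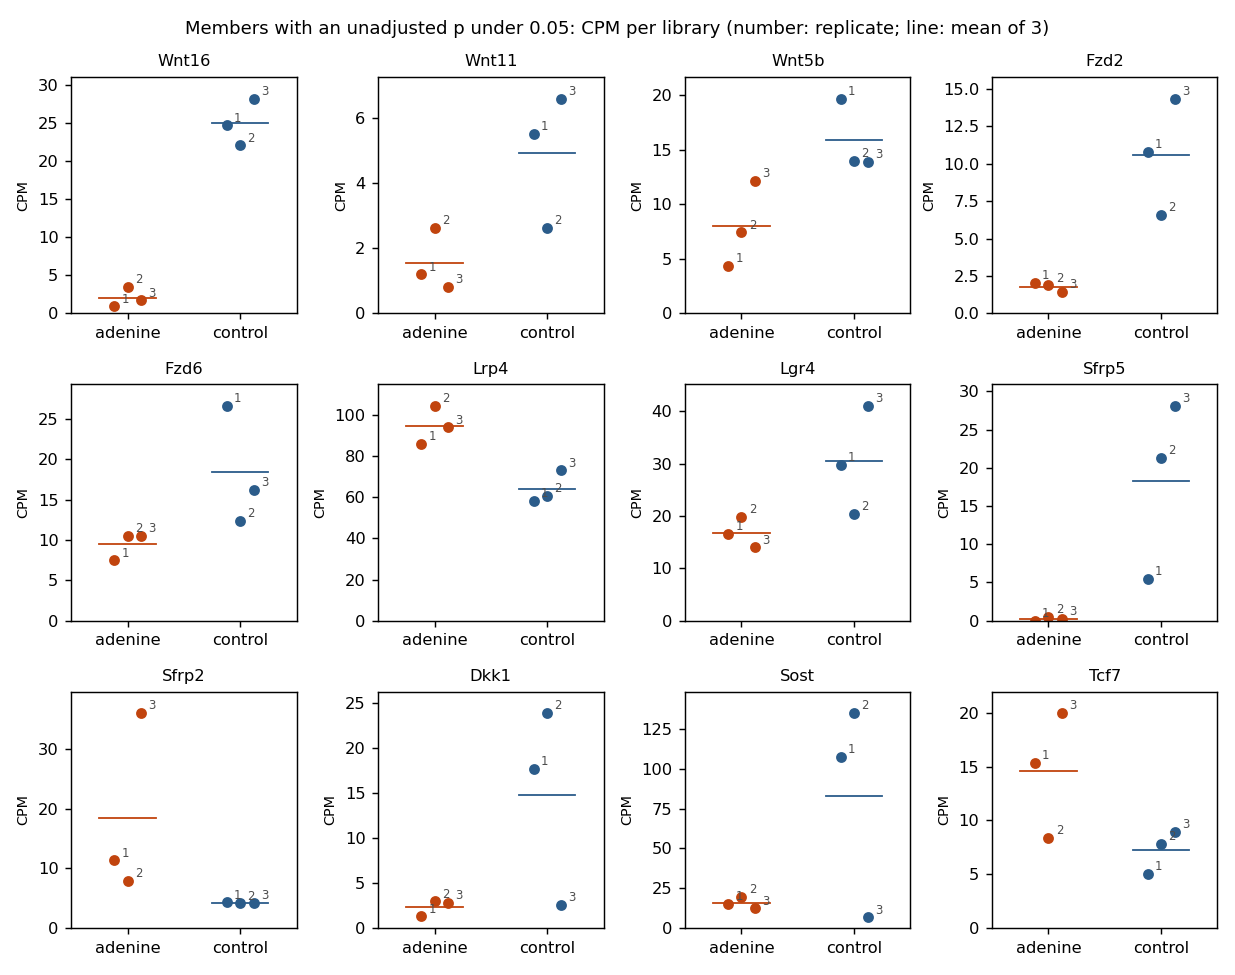
CPM per library (vertical axis, from 0) of the 12 members with an unadjusted edgeR p under 0.05, with adenine libraries left of control libraries, replicate numbers beside the points and a line at each mean of 3. Wnt16, Fzd2 and Sfrp5 are separated by diet in every library, as are Wnt11, Wnt5b, Fzd6, Lgr4, Lrp4 and Sfrp2. Of all genes tested, 8.86% were lower and 7.68% higher in every adenine library than in any control library. The diets overlap for Tcf7, Sost and Dkk1, and for Sost and Dkk1 control 3 lies among or below the adenine libraries.

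The genes grouped here as antagonists at LRP5 and LRP6, the divergent Dkk3 among them, all had negative fold changes, 6 of 6 tested. Of all 15609 genes tested, 7805 were negative. Only Dkk1 and Sost reached an unadjusted edgeR p under 0.05, as 6.49% of all genes did as lower. These 2 had the largest fold changes of the class, which rested on control 1 and control 2. Sost (ENSMUSG00000001494, chromosome 11) had 15.3, 19.6 and 12.3 CPM in adenine 1, 2 and 3, against 108, 135 and 6.61 CPM in control 1, 2 and 3. Control 3 lay below every adenine library, so the diets overlapped. Means were 15.8 ± 3.68 CPM on the adenine diet and 83.1 ± 67.6 CPM on the control diet (SD, n = 3 each), and the log2 fold change was -2.40 ± 0.91 (SE; edgeR, unadjusted p = 0.0334, adjusted p = 0.435; authors' deposited table, adjusted p = 0.0523). It was -2.93 without control 3 and -1.86 without control 2. With both control 3 and adenine 2 left out, chosen after seeing the data, it was -3.12 with an adjusted p of 0.0276 in edgeR, a fit of 2 libraries against 2.

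Dkk1, an inhibitor released by osteocytes and osteoblasts, repeated that pattern at a lower level. It had 1.29, 2.94 and 2.78 CPM in the adenine libraries, against 17.7, 23.9 and 2.58 CPM in control 1, 2 and 3, so that control 3 fell within the adenine range. Dkk1 had a log2 fold change of -2.65 ± 0.78 (SE; edgeR, unadjusted p = 0.0104, adjusted p = 0.332; authors' deposited table, adjusted p = 0.0213), -3.13 without control 3 and -2.11 without control 2. The osteocyte matrix gene Mepe had the same form, at 14.3, 22.8 and 15.5 CPM in the adenine libraries and 109, 154 and 19.8 CPM in control 1, 2 and 3. Dmp1, another osteocyte gene, had 80.6, 37.6 and 94.6 CPM in the adenine libraries against 163, 153 and 109 CPM in the control libraries. Control 3 was the lowest control for Dmp1 but above every adenine library. Of the 8 osteocyte markers, 7 had a negative fold change. At an unadjusted edgeR p under 0.05, 3 were lower (6.49% of all genes) and 0 higher (4.22%). The place of control 3 among the controls was mixed for the other osteocyte markers. Phex, Irx5 and Cd44 were lowest in control 3 among the controls, and Fgf23 in control 3 lay between the other controls. Ackr3 (43.5, 40.9 and 50.1 CPM in control 1, 2 and 3) and Pdpn (9.75, 9.60 and 16.0 CPM) were highest in control 3. In adenine 1, 2 and 3 Ackr3 had 12.2, 19.6 and 16.3 CPM, and Pdpn had 4.07, 7.14 and 8.64 CPM. Both lay below every control there, a pattern shown by 8.86% of all genes. Wnt1, given above, was also detected in control 1 and control 2 and not in control 3. The low Sost, Dkk1 and Mepe of control 3 came with its low red cell markers and its high muscle markers. After adjustment for muscle markers the log2 fold change was -2.51 for Sost (edgeR, unadjusted p = 0.0873) and -2.73 for Dkk1 (edgeR, unadjusted p = 0.0163), while the part of the red cell markers was not tested.

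**Figure D5:**
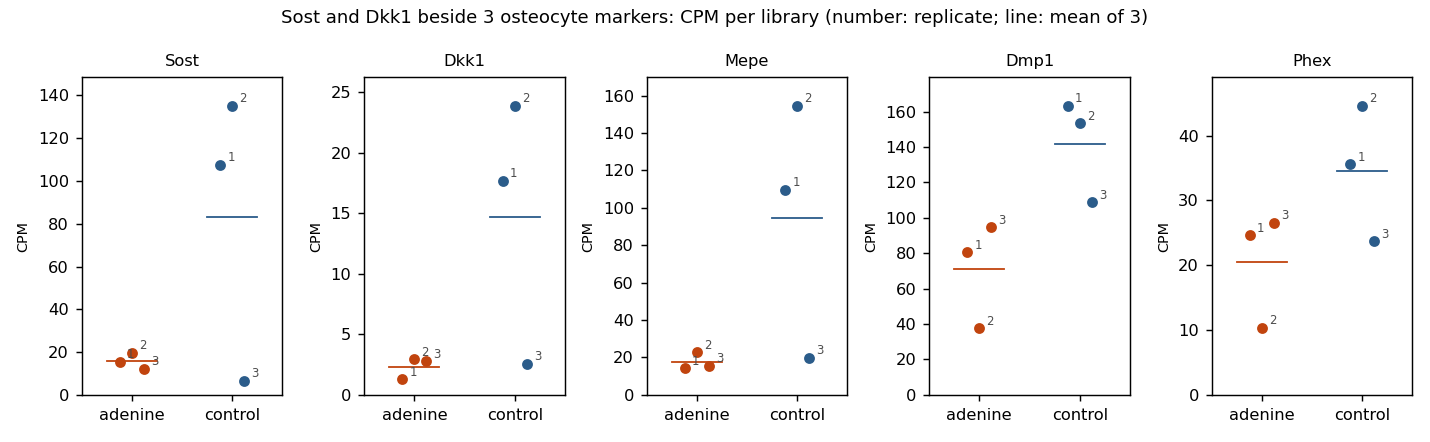
CPM per library (vertical axis, from 0) of Sost and Dkk1 beside the osteocyte genes Mepe, Dmp1 and Phex, with replicate numbers and a line at each mean of 3. For Sost, Dkk1 and Mepe control 3 sits at 6.61, 2.58 and 19.8 CPM, far below control 1 and control 2, while its Dmp1 at 109 CPM is the lowest control value but above every adenine library.

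The other antagonists of this class differed less. Dkk3, a divergent Dickkopf family member, had 36.2, 42.5 and 53.4 CPM in the adenine libraries, against 64.0, 49.6 and 101 CPM in the control libraries (log2 fold change -0.70 ± 0.31 SE; edgeR, unadjusted p = 0.0544). Kremen1, a Dickkopf receptor, had 27.2, 40.3 and 33.9 CPM in the adenine libraries and 58.0, 26.2 and 60.1 CPM in the control libraries, with a log2 fold change of -0.51 ± 0.34 (SE). Dkk2 and Sostdc1 had -1.39 and -0.10 with standard errors of 0.98 and 1.19, and Kremen2 had at most 3 counts. Summed FPKM of the 7 genes of this class was 27.0, 29.7 and 26.5 in the adenine libraries. It was 81.8, 90.6 and 45.8 in the control libraries, without overlap. Dkk3 supplied 28.8 of the 45.8 FPKM of control 3 and 11.8 of the 29.7 FPKM of adenine 2. Without Dkk3 the sums of the diets overlap, with control 3 below adenine 2. By FPKM, Dkk3 was the first of the class on the adenine diet (12.7 ± 2.32, with Sost at 7.40 ± 1.57), whereas on the control diet Sost came first (37.4 ± 30.5, with Dkk3 at 20.1 ± 7.81; SD, n = 3 each), an order that control 3 did not share.

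Target and intracellular genes differed in direction. Tcf7, a Wnt-responsive transcription factor, had 15.3, 8.40 and 20.0 CPM in adenine 1, 2 and 3, against 5.02, 7.84 and 8.96 CPM in control 1, 2 and 3, with adenine 2 inside the control range. The log2 fold change was 1.00 ± 0.41 (SE; edgeR, unadjusted p = 0.0398, adjusted p = 0.454), and 0.51 after adjustment for muscle markers. Axin2, the most widely used target gene, had 2.13, 7.24 and 3.23 CPM in the adenine libraries, against 7.31, 4.14 and 9.04 CPM in the control libraries (log2 fold change -0.71 ± 0.56 SE; edgeR, unadjusted p = 0.242). It was -1.36 without adenine 2 and 0.06 after adjustment for muscle markers. Nkd2, a feedback inhibitor, had 14.5, 22.3 and 39.9 CPM in the adenine libraries and 15.5, 10.6 and 19.8 CPM in the control libraries (log2 fold change 0.74 ± 0.42 SE), and its relative Nkd1 had -0.86 ± 0.68 SE. Lef1 was at 1.13 CPM or less in all libraries, with a log2 fold change of -0.61 ± 1.12 (SE). Ctnnb1, which encodes beta-catenin, was the most abundant member by FPKM, with 365, 365 and 463 CPM in the adenine libraries and 447, 429 and 539 CPM in the control libraries (log2 fold change -0.25 ± 0.28 SE; edgeR, unadjusted p = 0.412).

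Outside the 58 members, 63 further genes of the pathway had rows in the table and 61 were tested. At an unadjusted p under 0.05, 7 were lower and 3 higher, against 6.49% and 4.22% of all genes, and the median log2 fold change was -0.07. Among the 14 genes of the destruction complex and Dishevelled and among 13 nuclear partners of beta-catenin there were 0 of either direction at that threshold, with log2 fold changes of -0.54 to 0.23 and -0.73 to 0.25. Frzb, a further secreted Frizzled-related protein, had 2.13, 2.94 and 1.95 CPM in the adenine libraries, against 9.60, 6.60 and 9.11 CPM in the control libraries, a log2 fold change of -1.85 ± 0.39 (SE; edgeR, unadjusted p = 0.00173). Tpbg, a membrane inhibitor of Wnt signalling, had 1.39, 2.41 and 2.40 CPM in the adenine libraries and 7.52, 7.66 and 6.001 CPM in the control libraries, a log2 fold change of -1.77. Both are called in the authors' deposited table (adjusted p = 0.0165 and 0.0430), as is Tnfrsf11b, the osteoprotegerin gene, with a log2 fold change of -1.99 there and in edgeR. For these 3 genes the groups did not overlap. All adenine libraries lay below all controls for 9 of the 61 tested pathway genes, against 8.86% of all genes. They lay above all controls for 5, against 7.68% of all genes.

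Also lower were Tspan12, the norrin co-receptor that acts with Fzd4 (-1.09 ± 0.25 SE), Reck, a membrane protein needed for Wnt7 signals in vessels (-0.76 ± 0.22 SE), and Enpp1, which makes pyrophosphate (-1.15 ± 0.30 SE). Tspan12 is known as an endothelial gene, and 6 of 6 endothelial markers were lower in the same libraries, whose part in its value was not tested. Tnfrsf19 (1.28 ± 0.33 SE) and Ccn5 (1.08 ± 0.34 SE), both reported as Wnt targets, were higher in every adenine library than in any control library, a pattern shown by 7.68% of all genes. Tnfrsf19 had 127, 92.2 and 201 CPM on the adenine diet and 58.7, 45.7 and 68.7 CPM on the control diet. The remaining 2 of these 10 genes, Gpc6 and Porcn, are named after their values were seen. Gpc6, a glypican of the cell surface, had 2.22, 3.67 and 3.15 CPM in the adenine libraries and 6.31, 7.75 and 6.76 CPM in the control libraries, a log2 fold change of -1.20 ± 0.39 (SE; edgeR, unadjusted p = 0.0159, adjusted p = 0.368). Porcn, the acyltransferase that attaches the lipid to Wnt proteins, had 18.7, 22.6 and 32.6 CPM in the adenine libraries and 15.4, 7.48 and 13.4 CPM in the control libraries, a log2 fold change of 1.02 ± 0.35 (SE; edgeR, unadjusted p = 0.0209, adjusted p = 0.397).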

How the data were processed

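PolyA RNA was sequenced from cortical bone of tibiae. The labels' protocols describe both directional and non-directional library preparation. Tools named in the submitters' processing notes, with no role, are DESeq2, edgeR 3.22.5, featureCounts 1.5.0-p3 and HISAT2 2.0.5. For the genome build, the sources used here give none. The authors deposited raw counts, a normalized signal (counts divided by 1 size factor per library), FPKM per gene, and their own log2 fold changes with p-values and adjusted p-values.

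Counts were tested over the whole table with edgeR 4.0.16 (R 4.3.3; quasi-likelihood, robust, TMM, filterByExpr with a minimum count of 10, two-sided, diet as the only term, Benjamini-Hochberg over 15609 genes, threshold 0.05). A standard error (SE) is the size of the log2 fold change over the root of the F statistic. Alternatives used DESeq2 1.42.0, limma 3.58.1 on log2(FPKM + 1) and log2(FPKM + 0.1), other filters and scalings, a replicate block and each library left out; the muscle covariate (mean log2(CPM + 1) of 8 muscle markers) and the fit without control 3 and adenine 2 were chosen after seeing the data. An own DESeq2 fit gave the authors' 361 calls. The procedure was tested on simulated data. Members and lists were chosen with earlier results of these data known. Per-library values are given for members with an unadjusted p under 0.05, the highest by FPKM of each role and a panel of 26 genes, and of the other pathway genes the 8 with the smallest p are named. Values of Wnt1, Wnt6, Wnt9a, Fzd7, Fzd8, Rnf43, Dkk3, Gpc6 and Porcn were added after they were seen. Of the 58 members, 38 matched a RefSeq promoter by symbol. The spans of 24 members overlap another gene of the files, at 10% or more of the member's FPKM for 8. Floors are 3 counts and cover counting error only.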

Additional observations from a re-analysis of the deposited data

How the results depend on the processing

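The count of members past the adjusted threshold was 0 in edgeR. It was also 0 with DESeq2 size factors and with limma on log2(FPKM + 1) or log2(FPKM + 0.1). A minimum count of 50, no robust moderation, the replicate block and the muscle covariate gave 0 too. The count was 5 by the DESeq2 Wald test (1.4% of all genes passed), 2 without a filter on low counts (0.257%) and 2 without control 3 and adenine 2 (0.113%). With 1 library left out it was 3 without adenine 2 (2.03%) and 0 for each other library. At an unadjusted p under 0.05 in edgeR, 12 members differed. The higher count (3) was 5 without control 3 and adenine 2 (4.62% of all genes higher) and 1 with the replicate block (2.56%). With 1 library left out it was 1 (without adenine 3, 3.07%, or control 1, 2.77%) to 4 (without adenine 1, 1.97%, or control 3, 2.85%). The lower count (9) was 4 with the muscle covariate (4.69% of all genes lower) and 4 with the replicate block (3.76%). With 1 library left out it was 5 (without control 1, 3.89%) to 18 (without adenine 2, 14.1%). Of the pathway genes outside the members, the higher count (3) was 6 without control 3 and adenine 2 (4.62% of all genes higher). With 1 library left out it was 1 (without adenine 3, 3.07%) to 5 (without adenine 2, 5.57%). The lower count (7) was then 6 (without adenine 1, 4.02% of all genes lower) to 12 (without adenine 2, 14.1%). The cause was not tested.

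Same-numbered libraries did not deviate together (correlations -0.0845, -0.534 and -0.227). With 3 libraries per diet these values cannot decide whether a shared number marks a shared batch, and the labels name no batch. The block shows only what a shared number takes from 6 libraries. Of 622 fold changes of named genes under an alternative, 20 changed sign. With the muscle covariate these were Wnt10b (0.27), Fzd4 (0.34), Fzd1 (-0.0099), Lgr6 (0.28), Wif1 (-0.21), Sfrp4 (-0.27) and Axin2 (0.059); with the block Lgr6 (0.077) and Sfrp4 (-0.060); and on log2(FPKM + 1) and log2(FPKM + 0.1) Sfrp4 (-0.0014 and -0.0071). With 1 library left out, Wnt10b ran from -0.53 to 0.069, Fzd1 from -0.36 to 0.39, Lgr6 from -0.32 to 0.52, Wif1 from -0.23 to 0.55 and Sfrp4 from -0.70 to 0.42. Depth limits the 13 untested members, which had at most 33 counts in any library.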
